A study of Homo sapiens with 7 samples.

Results

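The p53 pathway target genes are a set of 31 named genes whose transcription p53 is known to activate. Their probes were found through the RefSeq accession printed beside each gene probe, and the probe with the highest mean over the arrays stood for its gene. Probes were matched for 30 of the 31 genes, of the 19062 gene symbols on the array, and all 30 were above background on all 7 arrays. No probe matched PIDD1.

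Total RNA came from NCI-H520 cells, an established line of squamous cell carcinoma of the lung, and was hybridised to single-colour Agilent arrays with 1 array per group. Every group was transfected with 6 µg of pLKO.1 plasmid using cationic liposomes, was placed under puromycin at 6 µg/mL from 12 h, and was harvested at 72 h. The control groups carried an empty vector or a non-target shRNA, and the silenced groups carried an shRNA against PARN, CNOT6, CNOT6L, CNOT7 or NOC (nocturnin, gene symbol NOCT), all deadenylases, the enzymes that shorten the poly(A) tail of mRNA. Each group was represented by 1 sample, the labels gave the CNOT6L and NOC shRNAs the same target accession, and untransfected cells were not analysed here.

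p53 is a transcription factor that is kept low by the ubiquitin ligase MDM2 and is stabilised by DNA damage and other stress. It then binds paired copies of a short half-site near its target genes and raises regulators of cell cycle arrest, apoptosis, DNA repair and metabolism, together with inhibitors of its own activity. The mRNA of p53 target genes also answers to other transcription factors and to mRNA lifetime, which deadenylases help to determine.

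The start regions of 27 of the 31 genes were held in a RefSeq table of assembly GRCh38.p14, as 36 windows of 250 bases before to 50 bases after a transcription start. The windows were searched for the p53 half-site, 10 bases made of purines, then a C, a pair of A or T bases, a G and then pyrimidines, which reads as the same pattern on both strands. It was present in 5 of the 36 windows, 13.9%, against 6.63% of 35116 windows in the table. AEN held it at base -34 and FDXR at base -11 from the start, with base 1 as the first transcribed base. DDB2 held a pair with 1 base between them, and 10 windows in the table, 0.0285%, held such a pair with a spacer of up to 13 bases. A match is a description of these letters and not evidence of binding. GADD45A, PHLDA3, RRM2B and TP53INP1 were not in the table.

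The DDB2 start region is printed for its pair of half-sites, those of SESN1 and PLK2 because each holds 1 half-site and the gene differed between the slide rows described further on, and those of SESN2 and PLK3 because these genes had the largest differences of all members. Each stretch runs 5′ to 3′ on the strand of the gene, from 150 bases before the start to 30 bases after it, and capitals mark half-sites. No half-site was found in the SESN2 or PLK3 stretch. The regions are DDB2 chr11:47214824-47215003 on the plus strand, SESN1 chr6:109008959-109009138 on the minus strand, PLK2 chr5:58460057-58460236 on the minus strand, SESN2 chr1:28259368-28259547 on the plus strand and PLK3 chr1:44800227-44800406 on the plus strand, all in GRCh38.p14.
DDB2: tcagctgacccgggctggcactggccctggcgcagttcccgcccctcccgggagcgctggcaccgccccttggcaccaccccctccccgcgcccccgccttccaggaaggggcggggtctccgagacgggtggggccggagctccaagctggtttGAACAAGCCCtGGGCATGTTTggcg
SESN1: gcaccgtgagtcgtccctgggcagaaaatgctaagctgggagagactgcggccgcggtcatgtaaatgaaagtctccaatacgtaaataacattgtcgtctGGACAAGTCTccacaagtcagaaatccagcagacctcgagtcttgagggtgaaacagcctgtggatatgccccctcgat
PLK2: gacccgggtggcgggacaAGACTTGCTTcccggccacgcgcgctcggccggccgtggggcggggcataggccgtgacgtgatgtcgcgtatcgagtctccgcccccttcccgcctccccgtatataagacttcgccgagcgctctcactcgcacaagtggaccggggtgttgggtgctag
SESN2: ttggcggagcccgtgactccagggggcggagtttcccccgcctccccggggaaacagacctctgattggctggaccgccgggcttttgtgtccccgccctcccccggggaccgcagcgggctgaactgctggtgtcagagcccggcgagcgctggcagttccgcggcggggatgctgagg
PLK3: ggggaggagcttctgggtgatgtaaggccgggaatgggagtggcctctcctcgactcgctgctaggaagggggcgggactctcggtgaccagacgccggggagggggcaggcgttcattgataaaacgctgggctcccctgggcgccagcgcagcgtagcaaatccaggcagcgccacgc

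The level of a gene is its background-corrected signal on the log2 scale, taken relative to the 75th percentile of its array, so that 0 is the brightness of the 75th percentile spot. A level of 1 probe cannot be set against that of another probe, so only differences between arrays are compared. In bulk RNA, fewer cells of a kind and less RNA per cell cannot be told apart. Between 82.0% and 91.5% of gene probes were above background per array, so this mark says little about which cell type is present. Of the 8 squamous markers, SOX2, KRT6A, DSC3 and PKP1 were above background on all 7 arrays. KRT5 was above it on 4 arrays, TP63 on 2, KRT14 on 1 and DSG3 on none. All 4 general epithelial, all 4 immune and all 4 neuroendocrine markers were above background on every array as well. So were 2 of 3 lung adenocarcinoma markers, NKX2-1 and NAPSA, and 2 of 4 fibroblast markers. The targeted mRNA was lowest on its own array in all 5 cases, which has no replicate check with 1 array per group. For CNOT6 and NOCT the drop below the lower control was small, and for NOCT the controls differed more from each other. PARN was at -0.16 on its array against 0.87 and 1.06 on the controls, CNOT7 at 0.21 against 1.05 and 1.14, CNOT6L at -1.98 against -1.28 and -1.35, CNOT6 at 0.21 against 0.42 and 0.32, and NOCT at -4.96 against -4.32 and -4.74, with -4.89 as the next lowest value, on the array of CNOT7 shRNA.

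The 7 arrays shared 1 slide. Slide row 1 held both controls together with the arrays of PARN and CNOT6 shRNA. Slide row 2 held CNOT6L shRNA, CNOT7 shRNA and NOC shRNA and had no control. Whatever separates the rows therefore cannot be told apart from the 3 shRNAs on row 2. Image extraction for NOC shRNA took place on a different day from the other 6.

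The first question was whether silencing a deadenylase moved p53 target mRNAs away from both controls. A gene was called higher or lower when its level differed at least 2-fold, 1 on the log2 scale, in the same direction from both control arrays. By this rule 1 member was called with any shRNA, SESN2 with NOC shRNA. With 1 array per group these calls have no replicate check and no test.

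SESN2 encodes a sestrin, a stress protein that restrains mTORC1 signalling and limits oxidative damage. Its level was 1.36 with the empty vector, 1.46 with the non-target shRNA, 1.31 with PARN shRNA, 1.26 with CNOT6 shRNA, 2.38 with CNOT6L shRNA, 2.23 with CNOT7 shRNA and 2.47 with NOC shRNA. The row 2 arrays were all far above the row 1 arrays, and the 4 row 1 arrays lay close together. Against the control mean the difference was 1.05 with NOC shRNA, 0.96 with CNOT6L shRNA and 0.81 with CNOT7 shRNA, and it was -0.11 with PARN shRNA and -0.16 with CNOT6 shRNA. The NOC call sat just past the threshold, at 1.11 against the empty vector and only just past it against the non-target shRNA, and it was lost with quantile normalization and with normexp background correction.

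Across all 42405 gene probes the 2-fold rule called 0.722% with PARN shRNA, 0.625% with CNOT6 shRNA, 0.998% with CNOT6L shRNA, 1.31% with CNOT7 shRNA and 1.76% with NOC shRNA. The 30 members gave 0, 0, 0, 0 and 1 call on the same arrays, and so small a count cannot be told from these shares. At a 1.5-fold threshold the shares of all probes were 2.07%, 4.58%, 4.77%, 5.45% and 5.98%, and the members called were SESN2 higher with CNOT6L, CNOT7 and NOC shRNA, and ZMAT3 and PLK3 lower with CNOT7 shRNA. By the brightest probes no member was called at 1.5-fold with PARN or CNOT6 shRNA. For 16483 genes by their brightest probes, this threshold called 42 higher and 161 lower with PARN shRNA, and 309 and 186 with CNOT6 shRNA. It called 235 and 480 with CNOT6L shRNA, 152 and 542 with CNOT7 shRNA, and 238 and 595 with NOC shRNA.

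**Figure D1:**
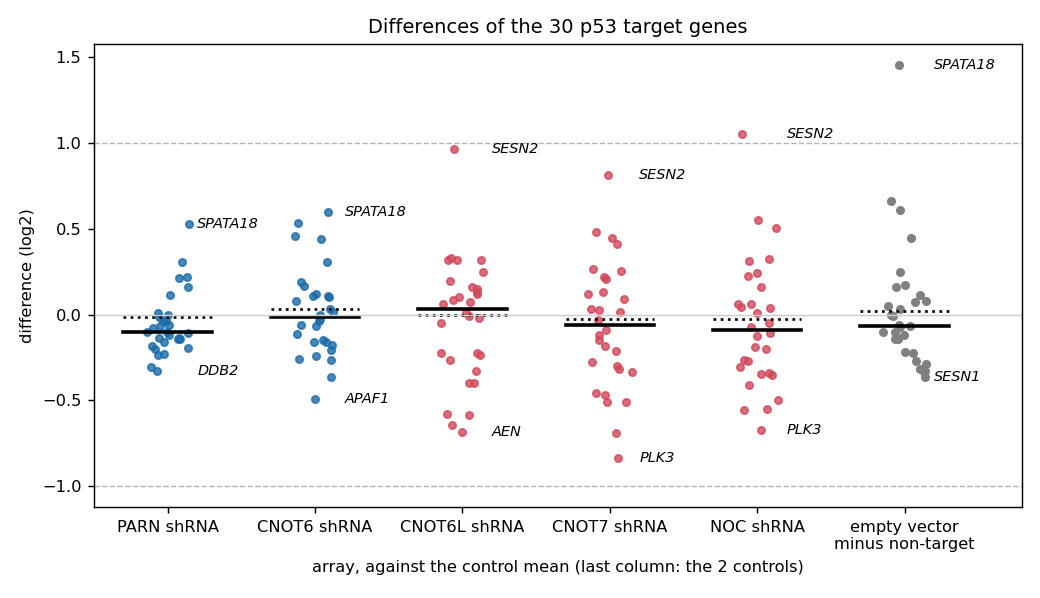
Each point is 1 of the 30 p53 target genes. The vertical axis is the log2 difference of its level from the mean of the control arrays for each shRNA array, and in the last column the difference between the control arrays. Blue arrays were in slide row 1 and red arrays in row 2. Solid bars are medians of the 30 genes, dotted bars medians of the brightest probe of each of 16483 genes, and dashed lines mark 2-fold. SESN2 is the highest point on each red array, and the medians stay between -0.10 and 0.04.

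The set as a whole shifted little. The median difference from the control mean over the 30 members was -0.10 with PARN shRNA, -0.02 with CNOT6 shRNA, 0.04 with CNOT6L shRNA, -0.06 with CNOT7 shRNA and -0.09 with NOC shRNA. Over the brightest probes of 16483 genes the same medians were -0.01, 0.03, -0.0031, -0.03 and -0.03, and over all 33813 probes above background on all arrays they were 0.00, 0.11, -0.02, -0.08 and -0.06. The empty-vector array differed from the non-target array by a median of -0.06 over the members. The same median was 0.02 over the brightest probes of 16483 genes and 0.13 over all 33813 probes. This gap lies between 2 single arrays and not from a control mean, so the shifts are not ranked against it. With PARN shRNA 23 of the 30 members were below the control mean, against 8714 of 16483 genes by their brightest probes, and with the other shRNAs between 14 and 17 members were below it.

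The SD of these differences over the members was 0.19 with PARN shRNA and 0.26 with CNOT6 shRNA, and it was 0.36 with CNOT6L shRNA, 0.37 with CNOT7 shRNA and 0.38 with NOC shRNA. Over the brightest probes of all 16483 genes it was 0.32, 0.37, 0.40, 0.38 and 0.43 on the same arrays, so the members did not spread more widely than other genes. Between the control arrays the SD over the members was 0.37, and 4 genes differed most there. SPATA18, a gene of mitochondrial quality control, was 1.46 higher with the empty vector than with the non-target shRNA, PHLDA3 was 0.66 higher, PMAIP1 0.61 higher and DRAM1 0.45 higher.

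**Figure D2:**
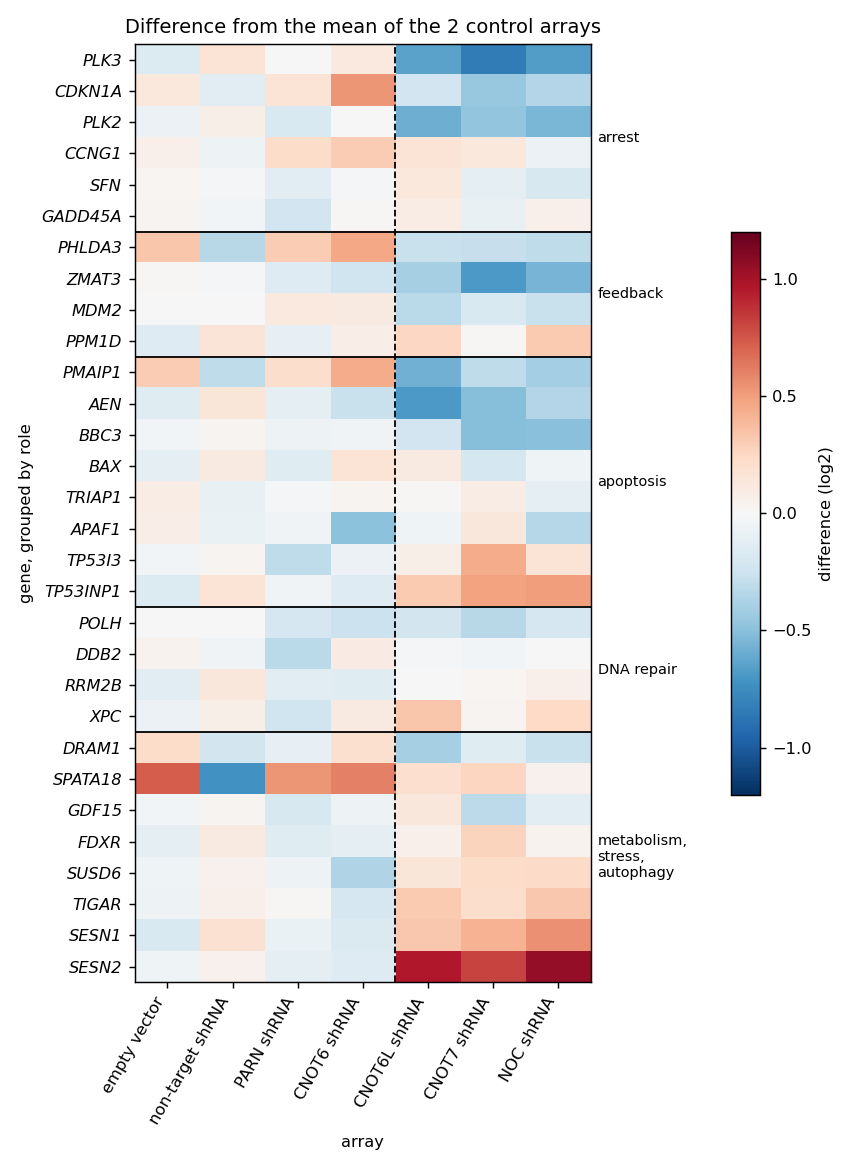
Difference of each of the 30 genes from the mean of the control arrays (colour, log2), on the 7 arrays in columns, with genes grouped by role and ordered within a role by the difference between slide rows. The dashed line separates slide row 1 on the left from row 2 on the right. SESN2 is the darkest red on the row 2 arrays, PLK3, PLK2, ZMAT3 and AEN are blue there, and SPATA18 differs most between the control columns.

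Among the 6 genes of cell cycle arrest, PLK3, CDKN1A and PLK2 had the largest differences between the rows. PLK3, a kinase of stress and DNA damage signalling, was at 1.25 with the empty vector, 1.58 with the non-target shRNA, 1.42 with PARN shRNA, 1.54 with CNOT6 shRNA, 0.78 with CNOT6L shRNA, 0.58 with CNOT7 shRNA and 0.74 with NOC shRNA. All 3 row 2 arrays were below all 4 row 1 arrays. On the CNOT7 shRNA array PLK3 was at 56.0% of the control mean, the lowest of the 30 members on that array.

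PLK2, a kinase linked to centriole duplication, was at 1.18 with the empty vector, 1.32 with the non-target shRNA, 1.07 with PARN shRNA, 1.25 with CNOT6 shRNA, 0.66 with CNOT6L shRNA, 0.78 with CNOT7 shRNA and 0.70 with NOC shRNA. As for PLK3, the rows did not overlap, and the 3 row 2 values lay within a narrow range.

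CDKN1A encodes p21, the cyclin-dependent kinase inhibitor that carries out much of the p53 arrest. Its level was -4.18 with the empty vector, -4.43 with the non-target shRNA, -4.15 with PARN shRNA, -3.77 with CNOT6 shRNA, -4.53 with CNOT6L shRNA, -4.77 with CNOT7 shRNA and -4.66 with NOC shRNA. CNOT6 shRNA gave the highest value, 0.53 above the control mean, and the row 2 arrays the 3 lowest, with a gap of 0.10 between the rows. CDKN1A was above background on all 7 arrays but far below the 75th percentile spot.

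The other arrest genes moved little. CCNG1, cyclin G1, was at 1.34 with the empty vector, 1.22 with the non-target shRNA, 1.499 with PARN shRNA, 1.59 with CNOT6 shRNA, 1.44 with CNOT6L shRNA, 1.40 with CNOT7 shRNA and 1.21 with NOC shRNA, so that it was among the 3 highest members with PARN shRNA at 0.22 above the control mean. SFN, the 14-3-3 sigma protein, ranged over 0.31 across the 7 arrays, and GADD45A, a growth arrest and DNA damage protein, also over 0.31.

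**Figure D3:**
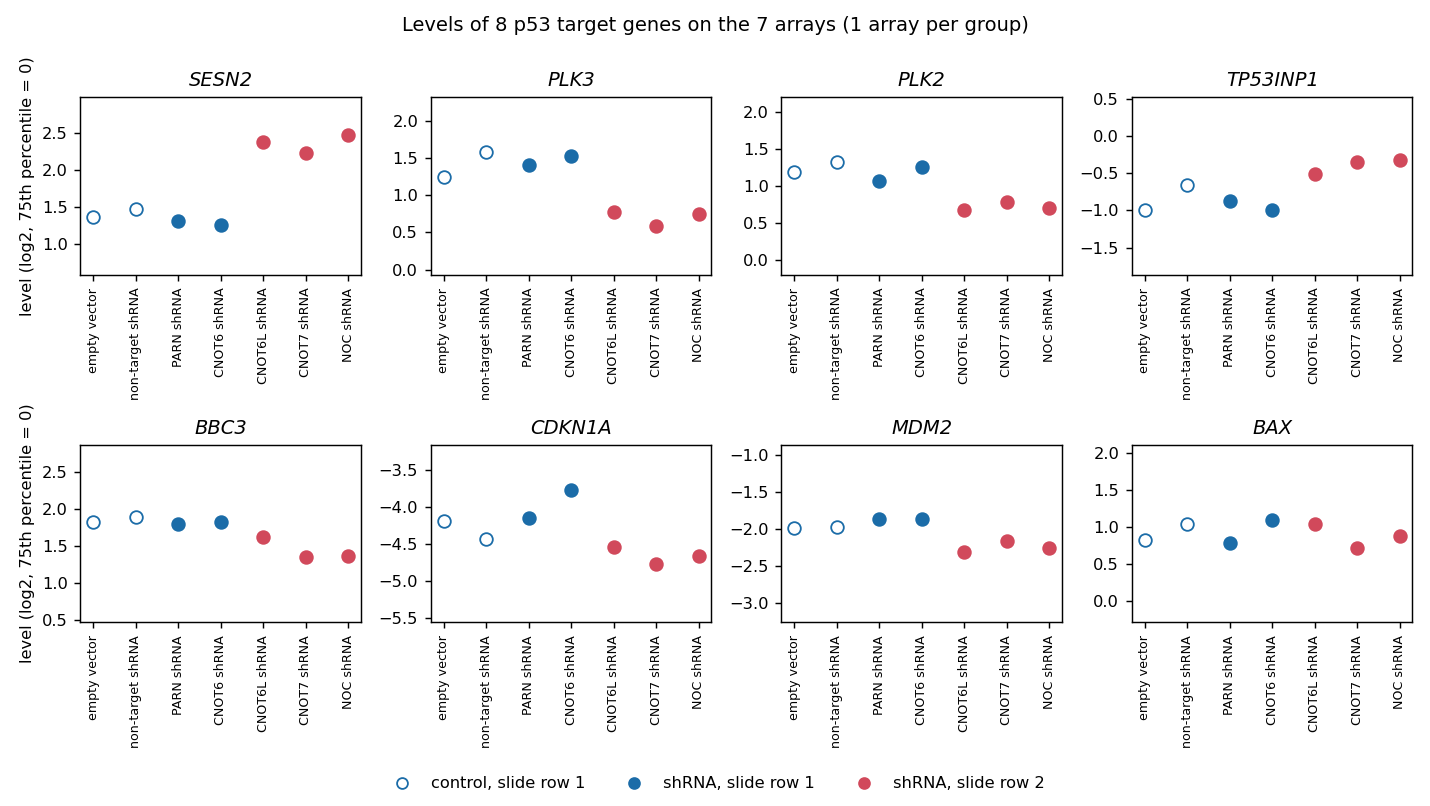
Levels of 8 p53 target genes on the 7 arrays, 1 point per array, on the log2 scale relative to the 75th percentile of the array, on vertical axes of equal span. Open circles are controls, blue is slide row 1 and red is slide row 2. SESN2 and TP53INP1 are higher on all 3 red arrays, PLK3, PLK2, BBC3, CDKN1A and MDM2 are lower there, and BAX overlaps between the rows.

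The 4 genes that feed back on p53 or its signalling include MDM2, its ubiquitin ligase. MDM2 was at -1.98 with the empty vector, -1.98 with the non-target shRNA, -1.86 with PARN shRNA, -1.87 with CNOT6 shRNA, -2.31 with CNOT6L shRNA, -2.16 with CNOT7 shRNA and -2.25 with NOC shRNA. By this probe, the brightest of 3, the controls were level with each other and the row 2 arrays were the 3 lowest. By 1 dimmer probe the empty vector differed from the non-target shRNA by -0.33. The other dimmer probe overlapped between the rows and was 1.5-fold lower with CNOT6L and NOC shRNA. Its 3 probes had row differences of -0.32, -0.53 and -0.60, so they shared a direction.

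ZMAT3, an RNA-binding zinc finger protein, was at -3.27 with the empty vector, -3.31 with the non-target shRNA, -3.45 with PARN shRNA, -3.53 with CNOT6 shRNA, -3.69 with CNOT6L shRNA, -3.98 with CNOT7 shRNA and -3.84 with NOC shRNA. It was below both controls with every shRNA and lowest on row 2. BBC3 and, by its brighter probe, POLH were also below both controls with every shRNA. For BBC3 the difference of CNOT6 shRNA from the empty vector was only -0.0066. The share of all genes below both controls with every shRNA was not computed, so these genes are not read as a result about the set. PHLDA3, which restrains AKT, was at -3.57 with the empty vector, -4.23 with the non-target shRNA, -3.59 with PARN shRNA, -3.44 with CNOT6 shRNA and between -4.20 and -4.16 on row 2. The non-target array thus lay close to row 2 and apart from the rest of its own row. PPM1D, the WIP1 phosphatase that dephosphorylates p53 and its kinases, had probes that moved in opposite directions between the rows, by 0.20 and -0.33. Of the 10 members with several probes, 7 had probes that shared the row direction, and those of RRM2B and DDB2 were opposed as in PPM1D.

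Of the 8 genes of apoptosis, some were higher and others lower on row 2. BBC3 (PUMA), a BH3-only activator of mitochondrial apoptosis, was at 1.83 with the empty vector, 1.90 with the non-target shRNA, 1.80 with PARN shRNA, 1.82 with CNOT6 shRNA, 1.63 with CNOT6L shRNA, 1.35 with CNOT7 shRNA and 1.37 with NOC shRNA. Row 1 spanned only 0.10 on this gene and row 2 lay below it.

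TP53INP1, a stress protein of apoptosis and autophagy, was at -0.997 with the empty vector, -0.66 with the non-target shRNA, -0.87 with PARN shRNA, -0.99 with CNOT6 shRNA, -0.51 with CNOT6L shRNA, -0.35 with CNOT7 shRNA and -0.32 with NOC shRNA. Row 2 was above row 1 by this probe, but a second, dimmer probe of the gene differed by 0.01 between the rows.

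AEN, an exonuclease of apoptotic DNA degradation, was at -0.41 with the empty vector, -0.12 with the non-target shRNA, -0.38 with PARN shRNA, -0.53 with CNOT6 shRNA, -0.95 with CNOT6L shRNA, -0.77 with CNOT7 shRNA and -0.61 with NOC shRNA. It was the lowest member with CNOT6L shRNA, at 62.2% of the control mean, while its second probe differed between the rows by -0.12. TP53I3, a quinone oxidoreductase, was at 2.37 with the empty vector, 2.44 with the non-target shRNA, 2.10 with PARN shRNA, 2.33 with CNOT6 shRNA, 2.48 with CNOT6L shRNA, 2.85 with CNOT7 shRNA and 2.56 with NOC shRNA. Its 2 probes had row differences of 0.32 and 0.33.

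BAX, the effector that permeabilises mitochondria, showed no separation: it was at 0.82 with the empty vector, 1.04 with the non-target shRNA, 0.79 with PARN shRNA, 1.096 with CNOT6 shRNA, 1.03 with CNOT6L shRNA, 0.72 with CNOT7 shRNA and 0.88 with NOC shRNA. APAF1, the scaffold of the apoptosome, was at -2.70 with the empty vector, -2.86 with the non-target shRNA, -2.82 with PARN shRNA, -3.28 with CNOT6 shRNA, -2.83 with CNOT6L shRNA, -2.65 with CNOT7 shRNA and -3.13 with NOC shRNA. It was the lowest member with CNOT6 shRNA, with a difference of -0.49 from the control mean. PMAIP1 (NOXA), another BH3-only protein, ranged from 1.95 to 2.97, and its non-target value of 2.22 lay within the row 2 range. TRIAP1, an inhibitor of apoptosis, had the narrowest range of all members, 0.20 over the 7 arrays.

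By their brightest probes the 4 genes of DNA repair and nucleotide supply were below the control mean with PARN shRNA, with differences of -0.33 to -0.14. For RRM2B the value of -2.04 equalled that of the empty vector, and its second probe was 0.24 above the control mean. DDB2, the damage sensor of nucleotide excision repair whose start region holds the pair of half-sites, was at 1.15 with the empty vector, 1.08 with the non-target shRNA, 0.79 with PARN shRNA, 1.22 with CNOT6 shRNA, 1.09 with CNOT6L shRNA, 1.08 with CNOT7 shRNA and 1.12 with NOC shRNA. The PARN shRNA array stood below the other 6, which spanned 0.14. DDB2 was the lowest member with PARN shRNA, at 79.7% of the control mean, but its second probe was at 91.1%, with 81.5% for CNOT6L shRNA and 88.5% for CNOT7 shRNA, so that by this probe PARN shRNA did not stand apart.

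XPC, which recognises damage in the same repair pathway, was at -0.35 with the empty vector, -0.21 with the non-target shRNA, -0.51 with PARN shRNA, -0.17 with CNOT6 shRNA, 0.05 with CNOT6L shRNA, -0.24 with CNOT7 shRNA and -0.03 with NOC shRNA. PARN shRNA again gave the lowest value, and the rows overlapped. POLH, a translesion polymerase, ranged over 0.33 by its brighter probe and over 2.07 by a dim second probe. That probe was above background on all 7 arrays but its repeated spots differed by an SD of up to 1.25, and it was 2-fold lower with CNOT6L shRNA and 1.5-fold lower with CNOT6 and NOC shRNA. RRM2B, a ribonucleotide reductase subunit, ranged over 0.28 by its brighter probe. Its second probe ranged over 0.62, with all row 2 values below row 1.

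The 8 genes of metabolism, stress and autophagy held 4 members whose row 2 values were all above row 1, where 13.1% of the brightest probes of 16483 genes were. Besides SESN2 these were its paralog SESN1, TIGAR and SUSD6. SESN1 was at -2.24 with the empty vector, -1.88 with the non-target shRNA, -2.14 with PARN shRNA, -2.24 with CNOT6 shRNA, -1.74 with CNOT6L shRNA, -1.65 with CNOT7 shRNA and -1.51 with NOC shRNA. The highest row 1 value, on the non-target array, was 0.14 below the lowest row 2 value.

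SUSD6, a membrane protein known as a p53 target, was at 1.67 with the empty vector, 1.77 with the non-target shRNA, 1.67 with PARN shRNA, 1.36 with CNOT6 shRNA, 1.87 with CNOT6L shRNA, 1.95 with CNOT7 shRNA and 1.95 with NOC shRNA. TIGAR, a bisphosphatase that lowers glycolysis, ranged from -0.55 to -0.29 on row 1 and from -0.14 to -0.03 on row 2. Both were higher on row 2 by a margin smaller than 1.5-fold.

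SPATA18 was at -5.13 with the empty vector, -6.58 with the non-target shRNA, -5.33 with PARN shRNA, -5.25 with CNOT6 shRNA, -5.66 with CNOT6L shRNA, -5.60 with CNOT7 shRNA and -5.81 with NOC shRNA. The non-target array alone stood apart, so that SPATA18 was the highest member with PARN shRNA, 0.53 above the control mean, and with CNOT6 shRNA, 0.60 above it, while both arrays were below the empty vector. GDF15, a secreted stress cytokine, FDXR, a mitochondrial reductase, and DRAM1, a lysosomal protein of autophagy, ranged over 0.45, 0.41 and 0.62 and overlapped between the rows.

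The 5 shRNA arrays were also compared with the 2 control arrays by limma, the contrast of silenced with control cells that the labels give, in which the spread is that between plasmids. It called 0% of 38090 probes and 0 of the 30 members at an adjusted p of 0.05. The smallest adjusted p over all probes was 0.524 (limma), and 1411 probes had an unadjusted p under 0.05. By their brightest probes 0 of the members did. The dim second probe of POLH did, with a difference of -1.11 (95% interval -2.01 to -0.21, unadjusted p = 0.021, limma). Among the brightest probes AEN, PLK2 and ZMAT3 came nearest, with differences of -0.39 (95% interval -0.78 to 0.01), -0.36 (-0.75 to 0.04) and -0.41 (-0.86 to 0.05). SESN2 differed by 0.51 (-0.26 to 1.28) and MDM2 by -0.11 (-0.51 to 0.29). The dimmer probes of MDM2 differed by -0.38 (-1.06 to 0.30) and -0.37 (-0.93 to 0.18). The 5 shRNA values of SESN2 had an SD of 0.60, with 2 arrays at the level of the controls and 3 above it.

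The comparison of the slide rows was added after the values were seen. The rows did not overlap for 13 of the 30 members, with 6 higher on row 2 (SESN2, SESN1, TP53INP1, TIGAR, TP53I3 and SUSD6) and 7 lower (PLK3, CDKN1A, PLK2, ZMAT3, AEN, BBC3 and MDM2). Among the brightest probes of 16483 genes the rows did not overlap for 28.5%, with 13.1% higher and 15.4% lower. The median row difference was -0.03 over the members and -0.03 over those genes. Leaving out the non-target array raised the count of members from 13 to 19, and leaving out the CNOT7 shRNA array raised it to 18.

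By limma, with row 2 (n = 3) against row 1 (n = 4), 5 of the 30 members passed an adjusted p of 0.05. Of 38090 probes, dim ones included, 6.64% passed, with 2.33% higher and 4.31% lower. The share over the brightest probes alone was not computed. SESN2 was higher by 1.01 (95% interval 0.80 to 1.22, adjusted p = 0.0015, limma), with means of 1.35 ± 0.09 (SD, n = 4) and 2.36 ± 0.12 (SD, n = 3) on rows 1 and 2. TP53INP1 was higher by 0.48 (0.23 to 0.74, adjusted p = 0.040, limma). PLK3 was lower, with a difference of -0.75 (-0.98 to -0.51, adjusted p = 0.0083, limma) and means of 1.45 ± 0.15 (SD, n = 4) and 0.70 ± 0.10 (SD, n = 3). PLK2 had a difference of -0.49 (-0.69 to -0.29, adjusted p = 0.019, limma) and BBC3 of -0.39 (-0.60 to -0.18, adjusted p = 0.042, limma).

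SESN2 passed under all 13 other settings tried, and PLK3 under 12 of the 13, the exception being values with no scaling between arrays. PLK2 passed under 9 of them, TP53INP1 under 7 and BBC3 under 4, with adjusted p from limma of up to 0.62, 0.15 and 0.47. Fewer members passed when the empty-vector array was left out (3), and the same number without the PARN or the CNOT6 shRNA array, while 2 passed without any 1 of the row 2 arrays, SESN2 and PLK3 each time. Without the non-target array 12 passed. With both control arrays left out, which leaves PARN and CNOT6 shRNA on row 1, 7 passed, which were PHLDA3, PLK2, PLK3, PMAIP1, SESN1, SESN2 and TP53INP1. The calls over all probes moved too, from 889 higher and 1642 lower, with 37444 to 38052 probes tested in each re-run. They were 2135 and 5539 without the non-target array, and 1406 and 3593 without both controls. Without the empty vector they were 366 and 883, without PARN shRNA 150 and 462, and without CNOT6 shRNA 1267 and 1482. Without CNOT6L, CNOT7 or NOC shRNA they were 33 and 220, 91 and 283, and 62 and 287. The member counts are not read as a result about the set.

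**Figure D4:**
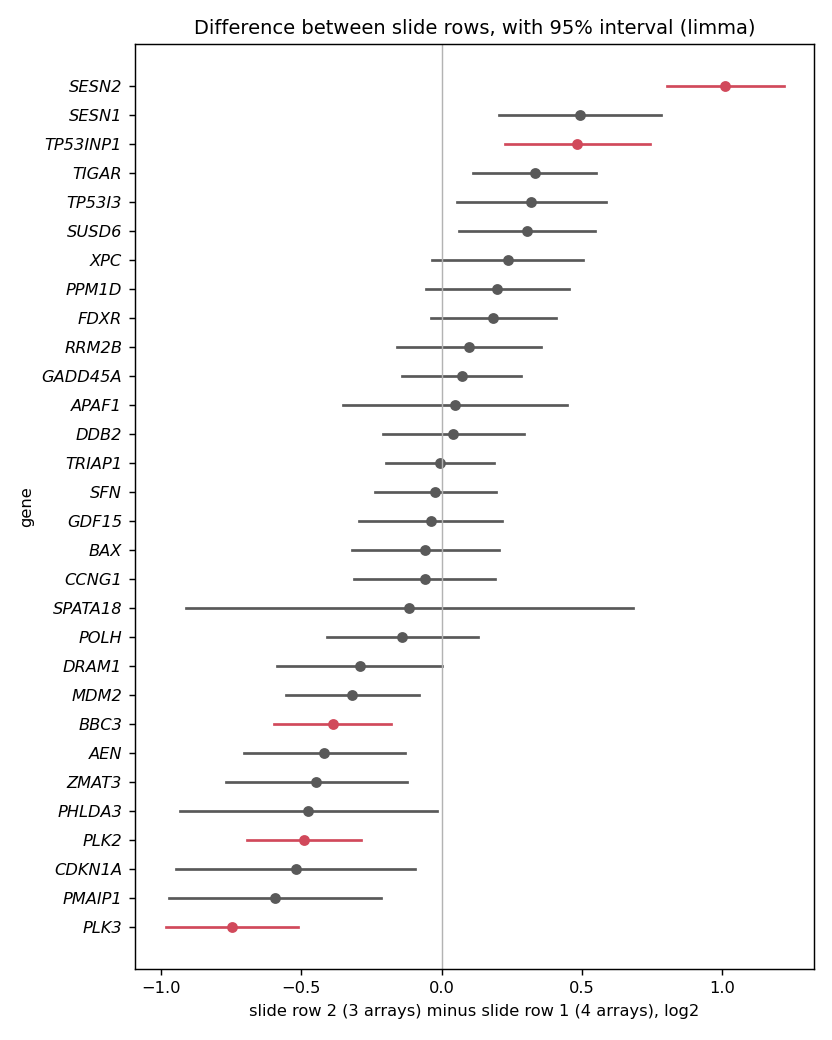
Difference between slide row 2 (CNOT6L, CNOT7 and NOC shRNA, 3 arrays) and slide row 1 (both controls, PARN and CNOT6 shRNA, 4 arrays) for the 30 genes in order, on the log2 scale. Points are mean differences, bars are 95% intervals from limma, and red marks an adjusted p under 0.05 over 38090 probes. SESN2 lies at 1.01 and PLK3 at -0.75, and the interval of SPATA18 is the widest.

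The non-target array did not lie clearly closer to its own row than to row 2. The SD of the pairwise difference over the 30 members ran from 0.16 to 0.21 for the 3 pairs in row 2 and from 0.14 to 0.41 for the 6 pairs in row 1, where it ran from 0.38 to 0.50 for the 12 pairs across rows. The row 1 and across-row ranges met through the non-target array. In its own row its SD was 0.37 with the empty vector, 0.34 with PARN shRNA and 0.41 with CNOT6 shRNA. Across rows its SD was 0.38 with CNOT6L shRNA, 0.41 with CNOT7 shRNA and 0.38 with NOC shRNA. The median absolute difference of the non-target array over the members was 0.15 to 0.20 from the row 2 arrays. It was 0.15 from the empty vector and 0.24 and 0.22 from PARN and CNOT6 shRNA. For all genes by their brightest probes the SD of the pairwise difference was 0.28 to 0.32 in row 2, 0.33 to 0.54 in row 1 and 0.46 to 0.53 across rows. For the non-target array this SD was 0.53 with the empty vector, 0.49 with PARN shRNA and 0.54 with CNOT6 shRNA. Across rows it was 0.48 with CNOT6L shRNA, 0.46 with CNOT7 shRNA and 0.49 with NOC shRNA. The median range of a member over the 7 arrays was 0.58, against 0.62 for all genes.

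The wider pathway was described with lists of 24 regulators of p53 and 30 further p53 targets. Probes were matched for all 24 regulators and for 29 of the 30 targets, all but CYFIP2, and 23 and 26 of them were above background on all arrays. No gene of either list was called at 2-fold or at 1.5-fold with any shRNA. Between the rows, limma called 2 regulators lower on row 2 and none higher, MDM4, the MDM2 partner that inhibits p53 (difference -0.55, adjusted p = 0.049, limma), and KAT5, an acetyltransferase that modifies p53 (-0.37, adjusted p = 0.036, limma). Of the further targets it called EPHA2, a receptor tyrosine kinase, lower (-0.60, adjusted p = 0.022, limma) and none higher. These counts, 2 of 24 and 1 of 26, stand beside 4.31% of all probes called lower and are no result about the lists.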

How the data were processed

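Cells of 7 groups were profiled on 7 arrays, 1 per group, with groups taken from the sample titles. The deposited scanner files hold intensity values that the authors extracted with Agilent Feature Extraction 10.7.3.1, of 62976 spots per array, as a processed signal already corrected for background. The deposited series table holds log2 values, which differ from the scanner values by 1 shift per array and a centring per probe, and it was used as an alternative. Control spots and spots marked as outliers were left out, spots of 1 probe were averaged, and each array was scaled to its 75th percentile. Background status followed the scanner flag, with 50% of the spots of a probe as the minimum. The number of arrays limits the precision, and depth does not apply. Symbols came from a RefSeq table of GRCh38.p14, for names only, and the array was designed on another build, so no probe coordinates are given.

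Differences were read against both controls at 2-fold, since 1 array per group allows no test. Comparisons of several arrays used limma 3.58.1 in R 4.3.3 (lmFit and eBayes with trend, two-sided, Benjamini-Hochberg over the 38090 probes above background on at least 2 arrays). The code was tested on simulated data with independent noise and no slide row effect. That test does not show what changes the contrasts could find on these arrays. The arms hold different plasmids, so p-values measure the spread between plasmids and arrays. The members and lists were chosen with earlier results of these data known. Full values are given for members called with any shRNA, for the 3 highest and 3 lowest members per shRNA, for the 3 with the smallest limma p and for CDKN1A, MDM2, BBC3 and BAX. The result for 1 gene is not reported here.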

Additional observations from a re-analysis of the deposited data

How the results depend on the processing

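No paired analysis was possible because every group has 1 array and all share the same replicate number. The counts of called members rest on few arrays. Leaving out 1 control at a time gave 0 to 1 called members with PARN, CNOT6, CNOT6L and CNOT7 shRNA and 1 to 1 with NOC shRNA; the genes were SPATA18 without the empty vector for PARN and CNOT6 shRNA, PLK3 without it for CNOT7 shRNA, and SESN2 without the non-target shRNA for CNOT6L shRNA. At 1.5-fold the counts were 1 with CNOT6L and 3 with CNOT7 shRNA. With no scaling between arrays they were 8 with CNOT6, 1 with CNOT6L and 1 with CNOT7 shRNA, and the median member differences were -0.43 (PARN), -1.02 (CNOT6), 0.43 (CNOT6L), 0.48 (CNOT7) and 0.13 (NOC), as this setting moved the median of all genes by -0.76 to 0.78 relative to the non-target array. Quantile normalization moved it by -0.25 to -0.01. The NOC count fell to 0 with quantile normalization and with normexp, where SESN2 was still 1.01 and 0.98 above the control mean.

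The limma count of 0 probes for 5 shRNA against 2 control arrays became 14 with no scaling and ran from 0 to 55 when 1 array was left out (55 without the empty vector, 10 without the non-target shRNA); the cause was not tested. The count of 5 members between the rows became 9 with normexp and ran from 2 to 12 when 1 array was left out. Over all probes normexp gave 1446 higher and 3923 lower, against 889 and 1642 in the main setting. With no scaling the row differences of BBC3 and PLK2 reversed, to 0.33 and 0.23, and that of PLK3 shrank to -0.03. The count of 13 members whose rows did not overlap ran from 12 to 19, where leaving out an array can only keep or raise it. With no scaling all 12 were higher, and the shares of all genes under these settings were not computed. The alternatives for the row comparison were chosen after seeing the data.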
